A study of Ovis aries with 20 samples.

Results

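Genes of the motile cilium and its axoneme, the microtubule skeleton that makes airway cilia beat, were followed in the trachea of developing sheep. The list held 49 genes, chosen by symbol for known parts of the machine: the motor chains of the outer and inner dynein arms, the factors that assemble them, the nexin links and the molecular ruler, the radial spokes, the central pair, the tektins and a few other proteins of ciliated cells. Of these, 47 had a row of that name among the 24478 genes of the count tables, and all 47 passed the filter on low counts. TEKT4 had no row of its name, and the values of the identifier that RefSeq gives that symbol (LOC101106386) are described with the tektins, outside every count over the 47. CFAP53 was not analysed here. The samples were pieces of trachea, labelled epithelial, from normal sheep (WT) and from sheep with cystic fibrosis (CF), the disease of a lost CFTR chloride channel, at days 65, 80, 100, 120 and 147, the last being birth. There were 2 samples of each genotype at each age, 20 altogether. The labels name no CFTR allele and no other treatment, and they do not say that the samples of a group came from separate animals. Both WT day 100 samples carry one identifier, as do both CF day 147 samples and the pair of WT day 65 replicate 2 and CF day 100 replicate 2, so the p-values reflect the spread of these samples alone, and part of it may be technical.

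A motile cilium is built on a ring of microtubule doublets around a central pair. Outer dynein arms set the beat frequency and inner arms shape the bend; their motor chains are folded and joined in the cytoplasm by assembly factors before they are carried into the cilium. Nexin links hold neighbouring doublets together and turn sliding into bending, radial spokes pass signals from the central pair to the arms, and tektins and other proteins line the inside of the doublets. In the trachea these genes are known to be switched on together, by FOXJ1 and related factors, when a cell becomes multiciliated, and loss of many of them causes primary ciliary dyskinesia.

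The libraries held between 42372433 and 87651829 counts. The 47 genes together took 0.194% to 0.338% of the counts of a library at day 65, 0.138% to 0.452% at day 80, 0.568% to 0.773% at day 100, 0.462% to 0.748% at day 120 and 0.5003% to 0.712% at birth, and the lowest count of any of them in any library was 160. In tissue RNA, fewer ciliated cells and less RNA per cell cannot be told apart. All 30 epithelial markers were detected in every library, with a summed level of 1747 to 8239.6 CPM (counts scaled to a library of 1000000), and 24 fibroblast and matrix genes, none at 0 in any library, at 5220.0 to 57732 CPM, so markers of more than epithelium were present. In 4 libraries genes of other tissues stood apart. The 12 thyroid genes summed to 110957 CPM in WT day 80 replicate 2 (35.7 to 257 in the others). The 23 skeletal muscle genes summed to 41212 in CF day 80 replicate 1 and to 1163 in WT day 65 replicate 2 (30.7 to 71.9 in the others), and 19 liver and plasma genes to 21509 in CF day 65 replicate 2 (76.0 to 203 in the others). The 18 thymus genes also summed to 683 CPM in replicate 2 of WT day 65 and to 524 in replicate 2 of WT day 80 (14.98 to 58.2 in the others). Days 65 and 80 therefore each rest on 1 such library of each genotype, and day 65 is the baseline of every comparison with birth. The midpoints and the calls from day 80 to day 100 are given with and without these 4. The median rise of the 47 in mean log2 CPM from day 65 to birth, with WT and CF averaged, was 1.45 with all libraries. It was 1.51 without these 4. Other values of days 65 and 80 mostly include them. Genes of sperm, most of them not parts of the flagellum, summed to 4.19 to 17.4 CPM over 11 genes. Of these, 3 to 6 were at 0 in a library.

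All 47 genes had a higher fitted level at birth than at day 65, and the 41 genes that were higher at birth by at least 1 on the log2 scale had a median of 98.0% of their rise in place by day 100. With WT and CF averaged, 32 of the 47 passed edgeR's quasi-likelihood test over all 20097 genes (adjusted p under 0.05), all 32 higher, where 18.6% of all genes passed in either direction and 8.77% as higher. Their log2 fold changes ran from 0.78 to 2.78, and the median over the 47 was 1.47, against -0.03 over all genes. In 40 of the 47 all 4 libraries at birth lay above all 4 at day 65, against 12.2% of all genes. Within WT the median was 1.81 and 10 genes passed (8.23% of all genes passed, 3.7% as higher): DNAH9, ARMC4, DNAAF2, LRRC6, SPAG6, TEKT2, ENKUR, CFAP52, PIFO and CDHR3. Within CF the median was 1.18 and CDHR3 alone passed (5.49% of all genes passed, 1.78% as higher). At an unadjusted p under 0.05 were 41 members in WT, against 27.7% of all genes, and 17 in CF, against 18%. That more passed in WT does not show a difference between the genotypes, which has its own test.

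The count of 32 was 18 with library sizes unscaled (20.1% of all genes) and 11 with each library's epithelium score as a covariate (14.7%). It was 8 with the samples of a shared identifier within a group summed (8.95%). Here and below, only the pairs of WT day 100 and of CF day 147 were summed. WT day 65 replicate 2 and CF day 100 replicate 2 stayed separate samples. Leaving out 1 library, with the lone sample of its group taken to vary like the other groups, gave 5 without WT day 65 replicate 1, 6 without CF day 65 replicate 2, 14 without CF day 147 replicate 1, 15 without CF day 65 replicate 1 or WT day 65 replicate 2, 17 without WT day 147 replicate 2, 20 without CF day 147 replicate 2, and 25 to 42 without any other, where 9.91% to 22.9% of all genes passed. The 10 of WT were 1 without WT day 65 replicate 1, WT day 65 replicate 2 or WT day 147 replicate 2, and 2 without any 1 library of WT day 100, CF day 65, CF day 100 or CF day 147. They were 19 without either CF day 80 library, 24 without WT day 147 replicate 1, 29 without WT day 80 replicate 2, 30 without WT day 80 replicate 1, and 7 or 8 without a day 120 library, where 1.96% to 15.8% of all genes passed. DESeq2 called 37 in WT (20.7% of all genes) and 5 in CF, a share near that of all genes (11.9%). The 1 of CF was 0 without CF day 65 replicate 2 and 3 without either CF day 80 library (1.55% to 6.95% of all genes without 1 library).

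**Figure D1:**
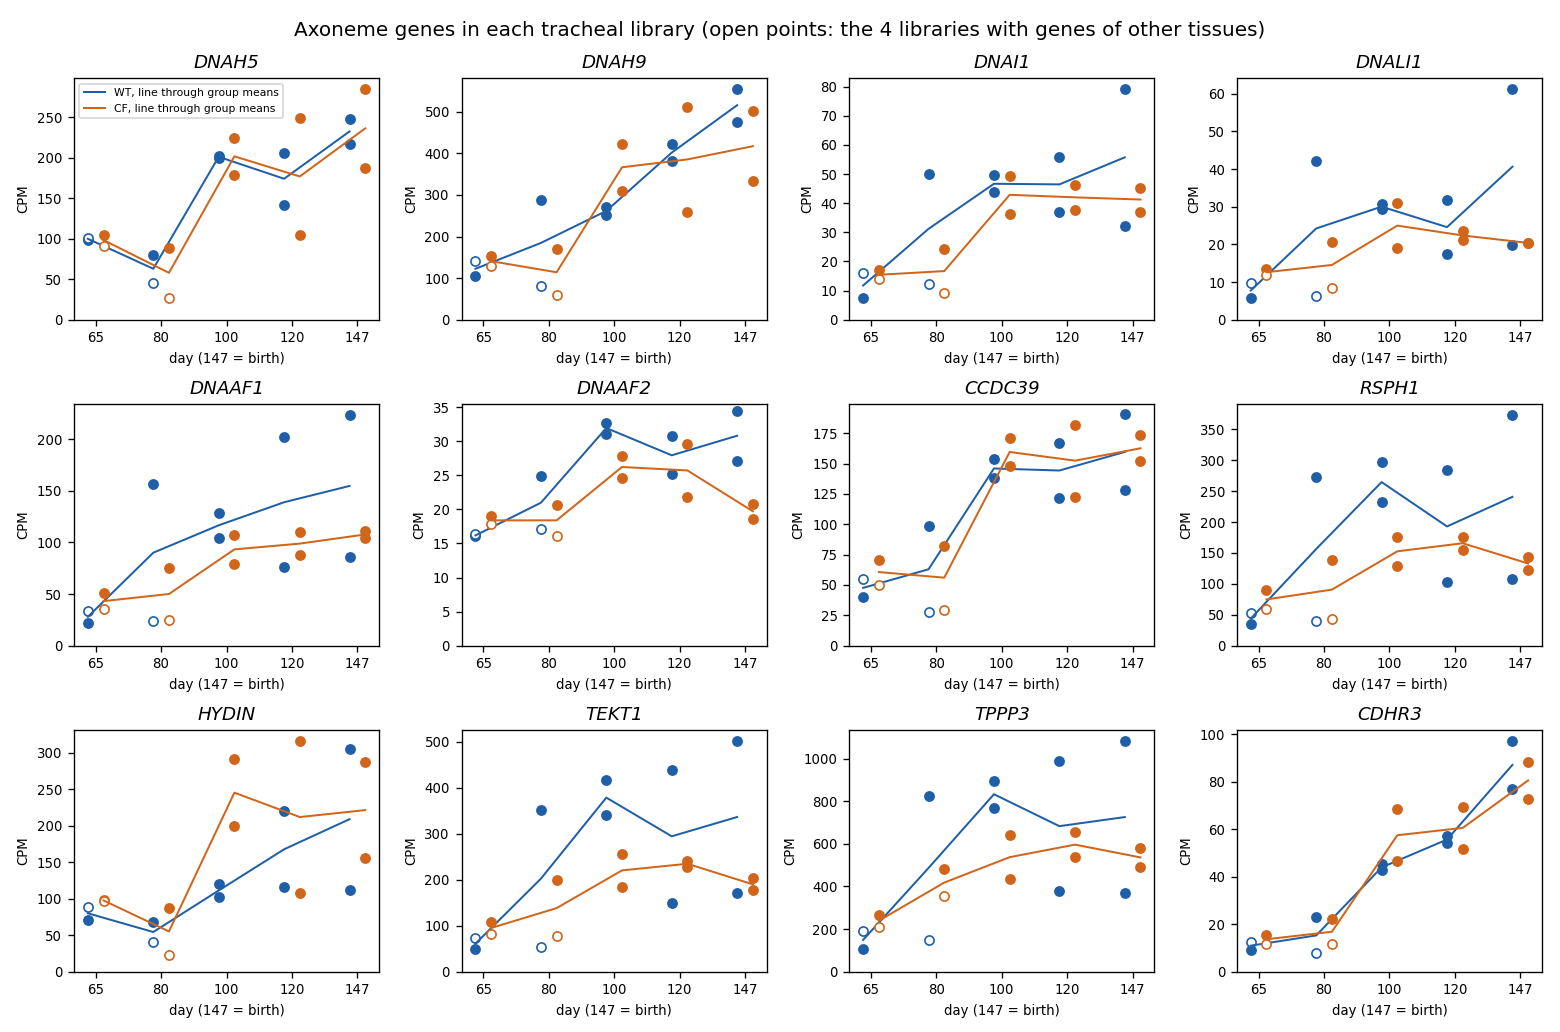
CPM of 12 genes in each library (y axis, linear from 0) by day (x axis, days spaced evenly, 147 being birth), WT in blue and CF in orange, with lines through the group means; open points are the 4 libraries with genes of other tissues. In each panel the libraries of day 100 lie above those of day 65, and the open points at day 80 are the low ones of that day, as for DNAH5 at 45.6 and 26.9 CPM.

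Outer dynein arm genes had a median log2 change of 1.47 from day 65 to birth with both genotypes averaged, and 5 of the 7 passed, all higher. DNAH5, the gamma heavy chain of the arm, lies on chromosome 16, 59099734 to 59365986 (positions as the count tables give them, on an unstated build). Each pair of values is replicate 1, then replicate 2. DNAH5 stood in WT at 98.7 and 101 CPM at day 65, 80.2 and 45.6 at day 80, 203 and 199.6 at day 100, 206 and 142 at day 120 and 247 and 217 at birth. DNAH5 in CF stood at 105 and 91.5 CPM at day 65, 26.9 and 88.8 at day 80, 225 and 179 at day 100, 105 and 249 at day 120 and 285 and 187 at birth. All 4 libraries of day 80 were below all 4 of day 65, and all 4 of day 100 were above both ages. Birth differed from day 65 by 1.24 ± 0.36 (SE) on the log2 scale (edgeR adjusted p = 0.0300), and day 100 from day 80 by 1.74 ± 0.36 (edgeR adjusted p = 0.0143). DNAH9 is the beta heavy chain of the outer, distal part of the cilium (chromosome 11, 29828203 to 30165442). In WT DNAH9 was at 104 and 141 CPM at day 65, 288 and 81.3 at day 80, 272 and 251 at day 100, 381 and 423 at day 120 and 476 and 555 at birth. In CF it stood at 153 and 129 CPM at day 65, 58.7 and 169 at day 80, 423 and 309.5 at day 100, 258 and 513 at day 120 and 501 and 334 at birth. In WT every later library except day 80 replicate 2 was above both of day 65, and the 2 birth libraries were the highest of the genotype. DNAH9 was higher at birth by 2.08 ± 0.58 in WT (edgeR adjusted p = 0.0444), by 1.57 ± 0.57 in CF (edgeR adjusted p = 0.148) and by 1.82 ± 0.41 with both averaged (edgeR adjusted p = 0.00821).

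The intermediate chain DNAI1, which sits at the base of the outer arm, had the largest change of the outer arm genes (chromosome 2, 36856643 to 36925949). DNAI1 stood in WT at 7.54 and 15.9 CPM at day 65, 50.1 and 12.3 at day 80, 49.6 and 43.7 at day 100, 36.9 and 55.95 at day 120 and 32.2 and 79.2 at birth. DNAI1 in CF stood at 16.97 and 13.8 CPM at day 65, 9.15 and 24.2 at day 80, 49.4 and 36.3 at day 100, 37.8 and 46.2 at day 120 and 45.4 and 37.1 at birth. The 2 WT libraries of day 80 were far apart, with replicate 1 at the level of day 100 and replicate 2 within the range of day 65, and the WT pair at birth was uneven too. DNAI1 differed between birth and day 65 by 1.83 ± 0.45 (edgeR adjusted p = 0.0143). DNAI2, ARMC4 and DNAH9 passed in that comparison too. ARMC4 is a part of the docking complex that anchors the arm. The docking complex gene CCDC114 (1.42 ± 0.50, edgeR adjusted p = 0.0665) and DNAH11, the heavy chain of the inner, proximal part of the cilium (1.34 ± 0.54, edgeR adjusted p = 0.102), did not pass. Of all members DNAH11 was the one furthest below its replicate 1 in replicate 2 of WT at birth, at 122 and 28.3 CPM.

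Inner dynein arm genes had a median log2 change of 1.45, and 5 of the 8 passed (DNAH1, DNAH2, DNAH3, DNAH6 and DNAH7). DNAH7 is one of the single heavy chains of the inner arms (chromosome 2, 197034071 to 197298553). In WT DNAH7 was at 31.0 and 41.3 CPM at day 65, 45.7 and 18.1 at day 80, 83.0 and 76.4 at day 100, 85.6 and 77.7 at day 120 and 98.1 and 101 at birth. DNAH7 in CF stood at 34.8 and 31.5 CPM at day 65, 14.1 and 41.4 at day 80, 114 and 81.1 at day 100, 51.9 and 141 at day 120 and 107 and 71.9 at birth. All 4 libraries of day 100 were above all 4 of day 80 and of day 65, and days 65 and 80 overlapped. DNAH7 rose by 1.57 ± 0.39 from day 80 to day 100 (edgeR adjusted p = 0.0270) and by 1.45 ± 0.39 from day 65 to birth (edgeR adjusted p = 0.0208). DNALI1, a light intermediate chain of the inner arms and one of the shortest genes of the list (chromosome 1, 12127487 to 12134472, 920 bases of exon), stood in WT at 5.81 and 9.68 CPM at day 65, 42.1 and 6.31 at day 80, 30.7 and 29.3 at day 100, 17.5 and 31.7 at day 120 and 19.95 and 61.3 at birth. In CF its levels were 13.4 and 11.8 CPM at day 65, 8.44 and 20.6 at day 80, 30.9 and 19.04 at day 100, 21.2 and 23.5 at day 120 and 20.3 and 20.5 at birth. WT day 147 replicate 2 and WT day 80 replicate 1 were its highest libraries, each far above its partner, while both CF libraries at birth were alike. DNALI1 had the largest log2 difference of the inner arm genes between birth and day 65, 1.54 ± 0.52, and did not pass (edgeR adjusted p = 0.0564).

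DNAH12, an inner arm heavy chain (chromosome 19, 43659001 to 43831906), had the smallest change of the inner arm genes. DNAH12 stood in WT at 21.4 and 30.9 CPM at day 65, 44.5 and 17.8 at day 80, 65.4 and 65.1 at day 100, 47.5 and 56.6 at day 120 and 57.3 and 64.6 at birth. DNAH12 in CF stood at 39.4 and 31.6 CPM at day 65, 11.7 and 31.7 at day 80, 70.7 and 45.1 at day 100, 34.1 and 66.6 at day 120 and 43.9 and 36.1 at birth. In WT both birth libraries were above both of day 65, whereas in CF the birth and day 65 libraries overlapped. Birth differed from day 65 by 0.70 ± 0.35 (edgeR adjusted p = 0.182), although day 100 was above day 80 in all libraries, by 1.24 ± 0.35 (edgeR adjusted p = 0.0449).

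The assembly factors had a median log2 change of 1.28, and 5 of the 7 passed (DNAAF1, DNAAF3, SPAG1, LRRC6 and CCDC103). DNAAF1, a leucine-rich repeat protein needed to preassemble dynein arms, had the largest change (chromosome 14, 9890975 to 9916259). DNAAF1 stood in WT at 22.1 and 33.8 CPM at day 65, 156 and 23.8 at day 80, 128 and 105 at day 100, 75.8 and 202 at day 120 and 85.8 and 224 at birth. DNAAF1 in CF stood at 50.9 and 35.4 CPM at day 65, 25.01 and 75.1 at day 80, 108 and 78.9 at day 100, 110.3 and 87.4 at day 120 and 104 and 111 at birth. All 8 libraries of days 100 and 147 were above all 4 of day 65, and in WT replicate 1 of day 80 and replicate 2 of days 120 and 147 were the highest. DNAAF1 rose by 1.89 ± 0.55 from day 65 to birth (edgeR adjusted p = 0.0299). ZMYND10 is another factor of dynein preassembly (chromosome 19, 49965718 to 49969892). In WT ZMYND10 was at 53.8 and 87.0 CPM at day 65, 389 and 54.8 at day 80, 385 and 303 at day 100, 148 and 421 at day 120 and 153 and 513 at birth. Its CF levels were 129 and 97.6 CPM at day 65, 73.4 and 201 at day 80, 258 and 189 at day 100, 241 and 181 at day 120 and 174 and 206 at birth. At day 100 both WT libraries were above both CF libraries, and at day 65 both CF libraries were above both WT libraries. ZMYND10 differed by 1.49 ± 0.57 between birth and day 65 and did not pass (edgeR adjusted p = 0.0872).

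DNAAF2, a co-chaperone of the preassembly of dynein (chromosome 7, 39745849 to 39753802), was the flattest assembly factor. DNAAF2 stood in WT at 16.03 and 16.3 CPM at day 65, 24.8 and 17.1 at day 80, 32.7 and 31.1 at day 100, 25.1 and 30.7 at day 120 and 27.1 and 34.5 at birth. DNAAF2 in CF stood at 18.99 and 17.8 CPM at day 65, 16.2 and 20.6 at day 80, 27.8 and 24.7 at day 100, 21.8 and 29.6 at day 120 and 20.8 and 18.6 at birth. In WT both birth libraries were above both of day 65, while in CF birth and day 65 overlapped. The change from day 65 to birth was 0.93 ± 0.25 in WT (edgeR adjusted p = 0.0361) and 0.10 ± 0.25 in CF (edgeR adjusted p = 0.927). The difference of the 2 developments, -0.83 ± 0.35, did not pass (edgeR adjusted p = 0.914).

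Genes of the nexin links and the ruler had a median log2 change of 1.48, and 4 of the 6 passed (CCDC39, CCDC40, CCDC65 and IQCG). CCDC39, which with CCDC40 forms the ruler that spaces spokes and inner arms along the doublet, lies on chromosome 1, 204404074 to 204460692. CCDC39 stood in WT at 40.4 and 54.8 CPM at day 65, 98.4 and 27.4 at day 80, 154 and 138 at day 100, 121 and 167 at day 120 and 129 and 191 at birth. CCDC39 in CF stood at 70.9 and 50.3 CPM at day 65, 29.6 and 82.4 at day 80, 171 and 148 at day 100, 123 and 182 at day 120 and 173 and 152 at birth. Every library of day 100 was above every library of days 65 and 80, and WT and CF overlapped at each age. CCDC39 rose by 1.58 ± 0.38 from day 65 to birth (edgeR adjusted p = 0.0129) and by 1.36 ± 0.38 from day 80 to day 100 (edgeR adjusted p = 0.0441). DRC1 is a core subunit of the nexin link (chromosome 3, 33375629 to 33423017). In WT DRC1 was at 103 and 133 CPM at day 65, 430.1 and 66.7 at day 80, 489 and 404 at day 100, 270.1 and 504 at day 120 and 242 and 595 at birth. In CF, DRC1 was at 189 and 136 CPM at day 65, 83.1 and 236 at day 80, 388 and 343 at day 100, 349 and 350.3 at day 120 and 315 and 308 at birth. CF was more even, with the 4 libraries of days 120 and 147 close together, while WT pairs at the same ages were wide apart. DRC1 differed by 1.38 ± 0.50 between birth and day 65 and did not pass (edgeR adjusted p = 0.0710).

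CCDC113 and IQCG marked the ends of this group. CCDC113, a coiled-coil protein of the axoneme and one of the shorter genes (1277 bases of exon, chromosome 14, 25439118 to 25470412), stood in WT at 4.31 and 6.75 CPM at day 65, 36.5 and 3.93 at day 80, 44.2 and 29.3 at day 100, 10.7 and 40.8 at day 120 and 10.97 and 50.7 at birth. CCDC113 in CF stood at 10.5 and 7.45 CPM at day 65, 5.83 and 18.1 at day 80, 23.2 and 14.9 at day 100, 23.1 and 17.3 at day 120 and 17.9 and 19.7 at birth. At day 80 in WT it had the widest pair of all members, and at days 120 and 147 in WT it was the member furthest above its replicate 1 in replicate 2. CCDC113 had the largest difference of the group between birth and day 65, 1.77 ± 0.67, which did not pass (edgeR adjusted p = 0.0839). IQCG is a nexin link subunit (chromosome 1, 188271879 to 188326479). In WT IQCG was at 19.8 and 26.2 CPM at day 65, 73.04 and 18.2 at day 80, 103 and 90.1 at day 100, 48.8 and 94.6 at day 120 and 55.0 and 107 at birth. IQCG in CF was at 36.5 and 30.4 CPM at day 65, 18.4 and 49.8 at day 80, 67.9 and 53.8 at day 100, 58.1 and 68.8 at day 120 and 57.9 and 63.2 at birth. Its libraries of day 100 and of birth were all above those of day 65, and it rose by 1.34 ± 0.41 (edgeR adjusted p = 0.0403), the smallest change of the group.

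Of the radial spoke genes, RSPH4A and ROPN1L passed between day 65 and birth, and RSPH1 and RSPH9 did not (median 1.51). RSPH1 is a spoke head protein (chromosome 1, 260663287 to 260678455). In WT RSPH1 was at 34.8 and 52.8 CPM at day 65, 273 and 39.7 at day 80, 297 and 233 at day 100, 102 and 283 at day 120 and 108 and 373 at birth. RSPH1 in CF stood at 89.5 and 60.1 CPM at day 65, 42.6 and 139 at day 80, 176 and 129.6 at day 100, 176 and 155 at day 120 and 122 and 144 at birth. In WT the day 80 and birth pairs were wide apart and both day 100 libraries were high, whereas in CF the libraries of days 100, 120 and 147 all lay between 122 and 176 CPM. RSPH1 differed between birth and day 65 by 1.64 ± 0.58 (edgeR adjusted p = 0.0661). RSPH4A is also of the spoke head (chromosome 8, 20971639 to 20985760). In WT RSPH4A was at 30.4 and 51.7 CPM at day 65, 45.5 and 25.8 at day 80, 109.7 and 125 at day 100, 102 and 99.9 at day 120 and 109 and 89.6 at birth. In CF it was at 60.2 and 44.6 CPM at day 65, 26.7 and 66.7 at day 80, 154 and 112 at day 100, 76.4 and 151 at day 120 and 129.5 and 95.9 at birth. All 4 libraries of day 100 were above all 4 of day 80, and WT and CF overlapped at each age. RSPH4A rose by 1.61 ± 0.32 from day 80 to day 100 (edgeR adjusted p = 0.0122) and by 1.19 ± 0.32 from day 65 to birth (edgeR adjusted p = 0.0215), the smallest change of the 4.

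ROPN1L, a stalk protein with a domain like that of a protein kinase A subunit (chromosome 16, 62621261 to 62640884, 958 bases of exon), had the largest change. ROPN1L stood in WT at 11.1 and 19.02 CPM at day 65, 102 and 14.3 at day 80, 112 and 85.0 at day 100, 45.01 and 142 at day 120 and 48.8 and 215 at birth. ROPN1L in CF stood at 33.8 and 25.4 CPM at day 65, 27.97 and 69.1 at day 80, 82.0 and 54.9 at day 100, 101 and 70.1 at day 120 and 55.5 and 72.1 at birth. Both CF libraries were above both WT libraries at day 65 and below both at day 100. ROPN1L rose by 2.12 ± 0.61 from day 65 to birth (edgeR adjusted p = 0.0304).

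Central pair genes had the smallest median change of the subgroups, 1.23, and 2 of the 5 passed (SPAG6 and SPEF2). SPAG6 is an armadillo repeat protein of the central pair (chromosome 13, 22510452 to 22570714). In WT SPAG6 was at 18.8 and 26.7 CPM at day 65, 46.8 and 18.04 at day 80, 82.8 and 84.6 at day 100, 59.8 and 75.7 at day 120 and 64.2 and 89.3 at birth. SPAG6 in CF stood at 34.5 and 26.1 CPM at day 65, 17.8 and 49.6 at day 80, 88.4 and 61.9 at day 100, 60.1 and 91.2 at day 120 and 79.7 and 67.9 at birth. All libraries of day 100 were above all of days 65 and 80, and WT and CF overlapped at each age. SPAG6 rose by 1.52 ± 0.35 from day 65 to birth (edgeR adjusted p = 0.00907). HYDIN, a giant protein that projects from the central pair (chromosome 14, 39025231 to 39372668, 15679 bases of exon), stood in WT at 71.2 and 88.7 CPM at day 65, 67.9 and 40.7 at day 80, 103 and 119.6 at day 100, 219.7 and 116 at day 120 and 305 and 113 at birth. HYDIN in CF was at 98.8 and 96.3 CPM at day 65, 23.4 and 86.7 at day 80, 291 and 199.7 at day 100, 108 and 316 at day 120 and 287 and 155 at birth. At day 100 both CF libraries were above both WT libraries, and in WT at days 120 and 147 replicate 1 was the high one of the pair, the opposite of RSPH1 and ROPN1L. HYDIN differed between birth and day 65 by 1.28 ± 0.47 and did not pass (edgeR adjusted p = 0.0741).

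SPAG16, the WD repeat protein of the bridge between the central microtubules (chromosome 2, 214232408 to 215355848), differed least of all 47 genes between day 65 and birth. SPAG16 stood in WT at 10.7 and 11.6 CPM at day 65, 6.54 and 5.17 at day 80, 10.7 and 11.2 at day 100, 15.5 and 8.57 at day 120 and 18.9 and 10.5 at birth. SPAG16 in CF stood at 11.9 and 11.03 CPM at day 65, 3.70 and 8.71 at day 80, 22.9 and 15.5 at day 100, 10.03 and 20.4 at day 120 and 19.7 and 12.8 at birth. All 4 libraries of day 80 were below all 4 of day 65 and of day 100, and in WT the day 100 and birth libraries overlapped those of day 65. SPAG16 rose by 1.26 ± 0.34 from day 80 to day 100 (edgeR adjusted p = 0.0381), while birth differed from day 65 by 0.45 ± 0.34 (edgeR adjusted p = 0.378).

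All 4 measured genes of the doublet lumen passed between day 65 and birth (TEKT1, TEKT2, ENKUR and CFAP52), with a median log2 change of 1.77. TEKT1 is a tektin filament protein (chromosome 11, 24623718 to 24640950). In WT TEKT1 was at 48.2 and 73.6 CPM at day 65, 351 and 53.3 at day 80, 417 and 340.5 at day 100, 149.9 and 439 at day 120 and 171 and 502 at birth. TEKT1 in CF stood at 109 and 81.1 CPM at day 65, 76.8 and 199.5 at day 80, 256 and 184 at day 100, 242 and 228 at day 120 and 177 and 203 at birth. Both CF libraries were above both WT libraries at day 65 and below both at day 100. TEKT1 rose by 1.73 ± 0.55 (edgeR adjusted p = 0.0438). TEKT2 is of the same family (chromosome 1, 10744550 to 10748931). In WT TEKT2 was at 13.4 and 18.3 CPM at day 65, 103 and 21.7 at day 80, 101 and 77.3 at day 100, 38.9 and 112 at day 120 and 44.2 and 172 at birth. Its levels in CF were 32.5 and 22.9 CPM at day 65, 22.9 and 50.1 at day 80, 55.7 and 46.3 at day 100, 75.1 and 56.04 at day 120 and 68.1 and 79.1 at birth. As for TEKT1, WT day 147 replicate 2 and WT day 120 replicate 2 were its highest libraries. TEKT2 rose by 2.09 ± 0.53 (edgeR adjusted p = 0.0157), the largest change of the group.

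The row that RefSeq names TEKT4, LOC101106386, stood in WT at 11.8 and 17.9 CPM at day 65, 90.5 and 15.3 at day 80, 105 and 82.7 at day 100, 33.1 and 121 at day 120 and 32.4 and 135 at birth. TEKT4 in CF stood at 31.0 and 19.2 CPM at day 65, 19.9 and 55.9 at day 80, 55.2 and 35.1 at day 100, 47.4 and 38.6 at day 120 and 42.0 and 46.3 at birth. Its libraries of day 100 and of birth were all above those of day 65, and within each WT pair its higher library was also that of TEKT1. ENKUR is a protein of the doublet wall that binds calmodulin (chromosome 13, 24823067 to 24859309). In WT ENKUR was at 18.9 and 28.3 CPM at day 65, 23.6 and 15.9 at day 80, 61.3 and 64.7 at day 100, 57.3 and 54.4 at day 120 and 54.6 and 77.6 at birth. ENKUR was at 29.03 and 21.5 CPM at day 65, 13.2 and 36.1 at day 80, 66.6 and 51.9 at day 100, 46.3 and 76.9 at day 120 and 71.5 and 66.8 at birth in CF. Every library of day 100 was above every library of days 65 and 80, and neither WT pair after day 100 was as wide as those of the tektins. ENKUR rose by 1.47 ± 0.30 (edgeR adjusted p = 0.00459), the smallest change of the group, with nearly the same size in WT (1.49 ± 0.42) and CF (1.45 ± 0.42).

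Of the 6 remaining genes 5 passed (CFAP43, TPPP3, PIFO, CDHR3 and AK7). CDHR3, a cadherin of the ciliated cell surface and a receptor of rhinovirus C, had the largest rise of the 47 genes and was the only one past the test in WT and in CF (chromosome 4, 47033125 to 47104251). CDHR3 stood in WT at 9.29 and 12.6 CPM at day 65, 22.8 and 7.66 at day 80, 42.7 and 45.1 at day 100, 54.03 and 57.2 at day 120 and 77.01 and 97.1 at birth. CDHR3 in CF stood at 15.6 and 11.7 CPM at day 65, 11.5 and 22.04 at day 80, 68.4 and 46.4 at day 100, 51.7 and 69.3 at day 120 and 88.3 and 72.7 at birth. All libraries of day 100 were above all of days 65 and 80, and all 4 at birth were above all 4 of day 120, which was so for no other member and for 1.46% of all genes. CDHR3 rose by 2.99 ± 0.47 in WT (edgeR adjusted p = 0.00265) and by 2.56 ± 0.46 in CF (edgeR adjusted p = 0.00566). The call in CF was lost without CF day 65 replicate 2 and with the pairs of a shared identifier summed.

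TPPP3, a tubulin-binding protein abundant in ciliated cells (chromosome 14, 34250114 to 34253797), stood in WT at 107 and 191 CPM at day 65, 826 and 147 at day 80, 896 and 769.6 at day 100, 378 and 988 at day 120 and 368 and 1084 at birth. TPPP3 in CF stood at 268 and 211 CPM at day 65, 356 and 480.1 at day 80, 642 and 433 at day 100, 656 and 537 at day 120 and 492 and 581 at birth. In CF the day 80 library high in muscle genes was above both libraries of day 65, which was so for no other member. TPPP3 rose by 1.72 ± 0.50 (edgeR adjusted p = 0.0311). CFAP44 is a tether between the inner arms and the doublet (chromosome 1, 176215663 to 176403614). In WT CFAP44 was at 94.3 and 95.4 CPM at day 65, 67.6 and 54.9 at day 80, 119 and 135 at day 100, 139.9 and 104 at day 120 and 159 and 124 at birth. CFAP44 in CF was at 102 and 84.9 CPM at day 65, 37.8 and 78.2 at day 80, 189 and 152 at day 100, 88.7 and 217 at day 120 and 178 and 126 at birth. Day 80 lay below day 65 and day 100 above it in all libraries, and the change from day 65 to birth, 0.64 ± 0.28, was the smallest of these genes and did not pass (edgeR adjusted p = 0.136).

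Set side by side per kilobase of exon, the members covered a wide range of levels. At birth TPPP3 stood at 595 ± 296 CPM per kilobase (mean ± SD over the 4 libraries of both genotypes), ZMYND10 at 149 ± 96.4, AK7, an adenylate kinase of cilia, at 146 ± 76.8, and ROPN1L at 102 ± 82.4. The levels of ZMYND10, AK7 and ROPN1L differed by less than that spread. At the other end were SPAG16 at 2.50 ± 0.734, DNAH12 at 3.93 ± 0.9999, DNAH11 at 5.498 ± 2.91, SPEF2 at 6.19 ± 1.198 and DNAAF2 at 6.49 ± 1.83 CPM per kilobase. At day 65 TPPP3 was again the highest, at 183 ± 62.8, and ZMYND10 stood at 52.3 ± 17.7.

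The onset of the rise was read from the 4 steps between sampled ages, with WT and CF averaged. From day 65 to day 80 no member passed edgeR's test, as no gene of the 20097 did (0%). In edgeR 6 members were at an unadjusted p under 0.05, a smaller share than the 23.6% of all genes, and DESeq2 called 0 members but 10.1% of all genes. From day 80 to day 100, 19 of the 47 passed, all higher, where 8.92% of all genes passed in either direction and 3.22% as higher. Their log2 changes ran from 0.95 to 1.74, and the median over the 47 was 1.09, against -0.11 over all genes. All 4 libraries of day 100 were above all 4 of day 80 in 24 of the 47, against 6.38% of all genes. After day 100 no member passed: the medians were -0.07 from day 100 to day 120 (0.0995% of all genes passed) and 0.09 from day 120 to birth (0.134%), with 0 members at an unadjusted p under 0.05 in either step (7.92% and 6.41% of all genes) and 0 called by DESeq2 (2.52% and 1.94%). Steps that meet at an age share its libraries, so a low day 80 lowers one step and raises the next.

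The genes past the test between days 80 and 100 were DNAH5 and ARMC4 of the outer arm, DNAH3, DNAH6, DNAH7 and DNAH12 of the inner arm, SPAG1 and CCDC103 of the assembly factors, CCDC39 and CCDC40 of the ruler, RSPH4A, the central pair genes SPAG6, SPAG16, SPAG17 and SPEF2, ENKUR, and CFAP43, CFAP44 and CDHR3. The count moved with the libraries of days 80 and 100. Without the 4 libraries with genes of other tissues 0 members passed (median 0.63), where 1.1% of all genes did. At an unadjusted p under 0.05 were then 19 members and 16.5% of all genes. With the epithelium score as a covariate 0 passed (median 0.60, 1.16% of all genes), and with the pairs of a shared identifier summed 0 (0.935%). Without 1 library the count was 0 (CF day 100 replicate 1), 1 (WT day 100 replicate 2), 5 (CF day 80 replicate 1), 7 (WT day 80 replicate 2), 9 (WT day 100 replicate 1 or CF day 100 replicate 2), 35 (WT day 80 replicate 1) and 14 to 26 for any other, where 0.677% to 12.8% of all genes passed. The epithelium score was the mean log2 CPM of the 30 epithelial markers, each relative to its mean over the 20 libraries. It was lowest in CF day 80 replicate 1 (-1.55) and highest in WT day 100 replicate 2 (0.61). The 24 fibroblast and matrix genes had a median log2 change of -1.33 from day 80 to day 100, 13 of them past the test as lower. The part of the fibroblast genes in the step was not tested.

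**Figure D2:**
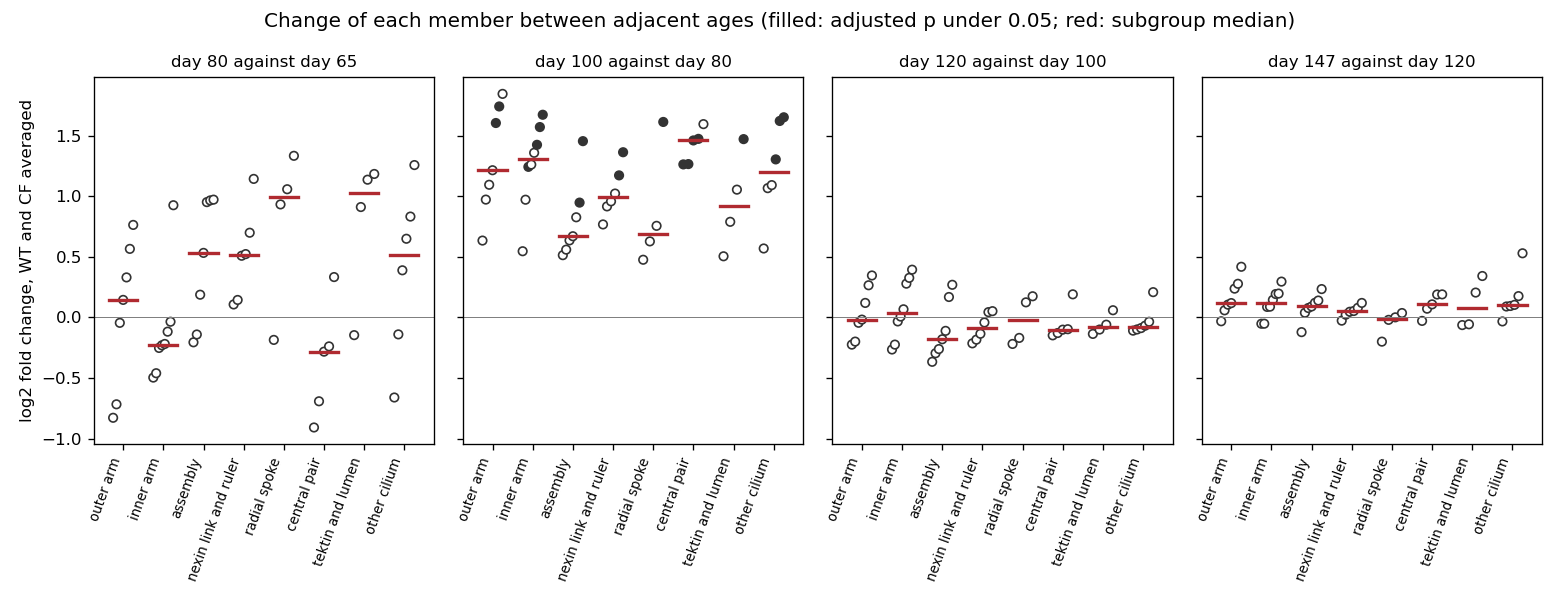
Log2 fold change of each of the 47 members (points) between adjacent ages, WT and CF averaged (y axis), by role (x axis); filled points passed edgeR's test and red bars are medians. The points of day 80 against day 65 spread from -0.91 to 1.33, those of day 100 against day 80 all lie above 0, and none of the later steps has a filled point.

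The order of the subgroup medians was not the same in the first 2 steps. From day 65 to day 80 the medians were 1.02 for the tektin and lumen genes, 0.99 for the radial spokes, 0.53 for the assembly factors, 0.52 for the nexin links and ruler, 0.14 for the outer arms, -0.22 for the inner arms and -0.28 for the central pair. From day 80 to day 100 the order was nearly the reverse: 1.46 for the central pair, 1.31 for the inner arms, 1.21 for the outer arms, 0.99 for the links and ruler, 0.92 for the tektins and lumen, 0.69 for the spokes and 0.67 for the assembly factors. Counted by gene, 4 of 5 central pair and 4 of 8 inner arm genes passed in the second step, against 1 of 4 spoke and 1 of 4 lumen genes. These are descriptions of gene groups, and the differences between groups were not tested.

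A midpoint was set for each gene at 50% of its rise in mean log2 CPM from day 65 to birth, for the 41 genes that were higher at birth by at least 1 on the log2 scale. By day 80, LRRC6, RSPH9, ROPN1L and TPPP3 had passed it, and by day 100 all 41 had. The median share of the rise in place was 11.9% by day 80, 98.0% by day 100 and 94.1% by day 120. By subgroup the share at day 80 was 47.1% for the spokes, 43.4% for the tektins and lumen, 37.8% for the assembly factors, 16.7% for the links and ruler, -4.21% for the outer arms, -26.7% for the inner arms and -38.5% for the central pair, a negative share being a level under that of day 65. TEKT1 (48.3%) and TEKT2 (48.7%) were just short of the midpoint at day 80, and ROPN1L (50.4%) just past it.

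The midpoints moved with the libraries that made up day 80. Without the 4 libraries with genes of other tissues, 22 of 41 genes were past the midpoint by day 80 and the other 19 by day 100, and the median share at day 80 was 70.6%. The spokes, tektins and lumen again came first and the inner arms and central pair last: spokes 109.7%, tektins and lumen 89.8%, links and ruler 86.4%, assembly factors 81.9%, outer arms 43.4%, central pair 29.004% and inner arms 26.9%. In WT alone 10 of 43 genes were past it by day 80, 30 more by day 100 and 3 by day 120, and in CF alone 2 of 32 by day 80 and the other 30 by day 100. Without 1 library the count by day 80 was 18 (WT day 80 replicate 2), 13 (CF day 80 replicate 1), 7 (WT day 147 replicate 2), 2 (WT day 147 replicate 1 or CF day 65 replicate 2), 1 (WT day 80 replicate 1 or CF day 80 replicate 2) and 3 to 6 for any other, while by day 100 it stayed between 37 and 42.

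**Figure D3:**
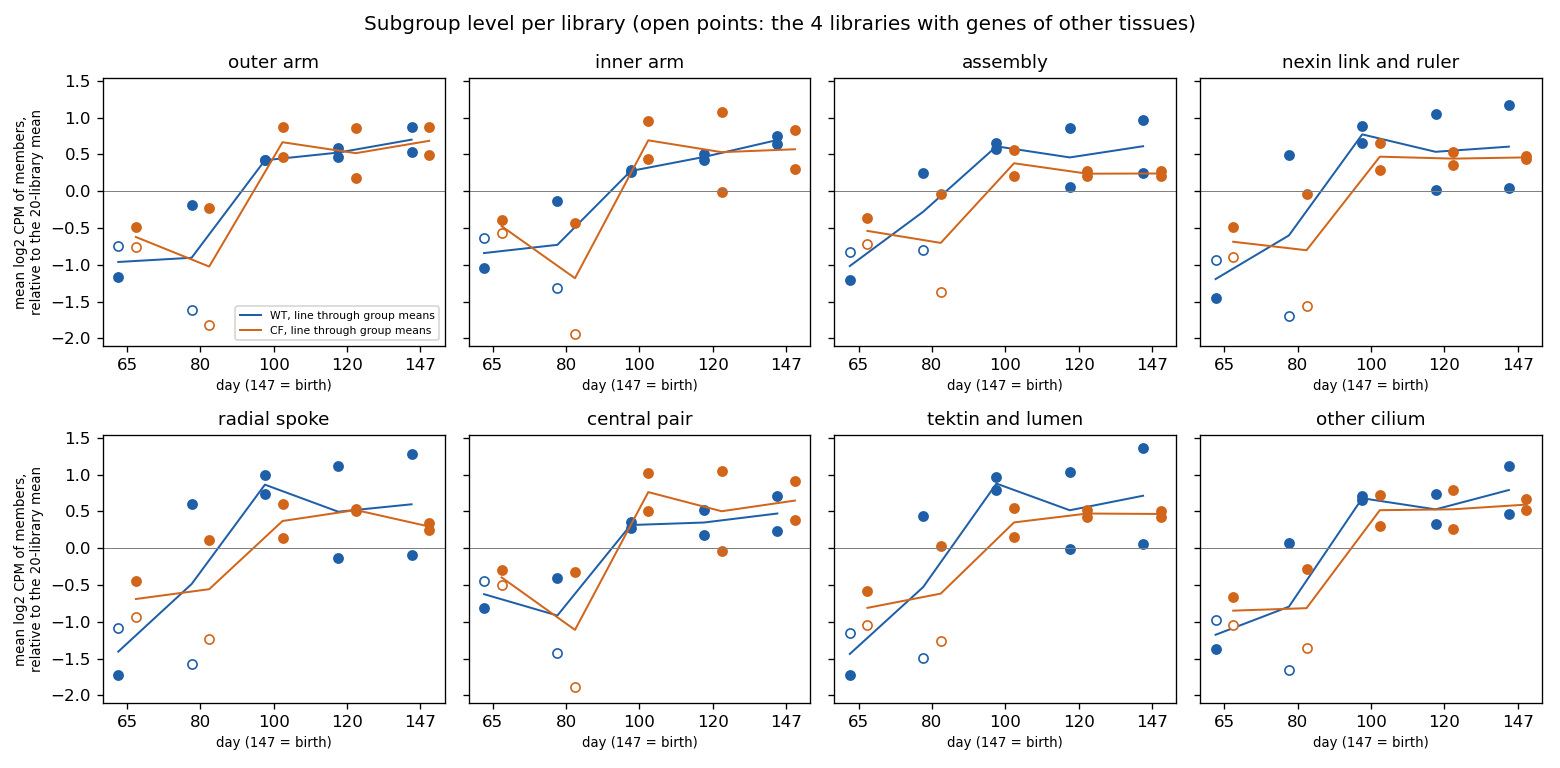
Mean log2 CPM of each subgroup in each library, relative to the mean of the 20 libraries (y axis), by day (x axis, days spaced evenly), WT in blue and CF in orange, with open points for the 4 libraries with genes of other tissues. The open points of day 80 are the 2 lowest of that day in each panel, and in WT at birth the 2 libraries lie at -0.09 and 1.29 for the spokes and at 0.75 and 0.64 for the inner arms.

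Gene length ran through these differences. The members' summed exon lengths ran from 910 to 18090 bases, with a median of 3787, and the 10 dynein heavy chains, at 12855 bases or more, were among the longest. Over the 47 genes Spearman's rho between length and the log2 change from day 65 to day 80 was -0.76, and for the change from day 80 to day 100 it was 0.59 (across genes of the same libraries, so a description with no test). The 23 genes shorter than the median differed by a median of 0.91 from day 65 to day 80, and the 23 longer ones by -0.22. From day 80 to day 100 the shorter ones differed by 0.83 and the longer ones by 1.36, and 15 of the 19 genes past the test were among the longer. Spokes, tektins and assembly factors are mostly short genes, and the inner arms and central pair mostly long ones, so the order by role and the order by length cannot be told apart here.

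A tilt with length also stood between the 2 libraries of one group. In WT at birth the median log2 ratio of replicate 2 to replicate 1 was 1.38 for the shorter genes and -0.07 for the longer ones (rho with length -0.75), from -2.11 for DNAH11 to 2.21 for CCDC113. In CF at day 120 it was the longer genes that were higher in replicate 2, by 1.01 against -0.04 (rho 0.81). A length slope was taken across all genes for each library. It was the slope on log2 gene length of log2 CPM relative to each gene's mean over the 20 libraries. The slope was lowest in WT day 147 replicate 2 (-0.243), WT day 80 replicate 1 (-0.179) and WT day 120 replicate 2 (-0.174). It was highest in WT day 65 replicate 1 (0.245). At day 65 the slopes were 0.245 and 0.164 in WT and 0.097 and 0.103 in CF. At day 80 they were -0.179 and 0.091 in WT and -0.067 and -0.080 in CF. The slope thus differed between these ages, and how much of the change with age the covariate takes out was not tested.

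With each library's length slope as a covariate the subgroup medians lay closer together in the first 2 steps, and further apart over the whole span. The medians from day 65 to day 80 then ran from -0.45 for the outer arms to -0.09 for the remaining genes, with -0.13 for the tektins and lumen and -0.27 for the spokes, and rho with length was 0.13. From day 80 to day 100 the medians ran from 1.00 for the assembly factors to 1.45 for the outer arms, and the median over the 47 was 1.26. In that step 39 of the 47 genes passed edgeR's test, all 19 of the above among them, and calls over all genes rose too, from 8.92% to 24.6%. By day 80 only LRRC6 of 27 genes that were higher at birth by at least 1 was past its midpoint, and the other 26 were by day 100. From day 65 to birth 23 genes passed with that covariate, with a median of 1.08, where 30.2% of all genes passed. The subgroup medians then ran from 0.65 for the spokes to 1.42 for the inner arms, against 1.23 to 1.77 without it, and rho with length was 0.57 in place of -0.45. The heavy chains, with a median of 1.57, then stood above the other members, with 0.95, where they had been below (1.39 against 1.49).

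**Figure D4:**
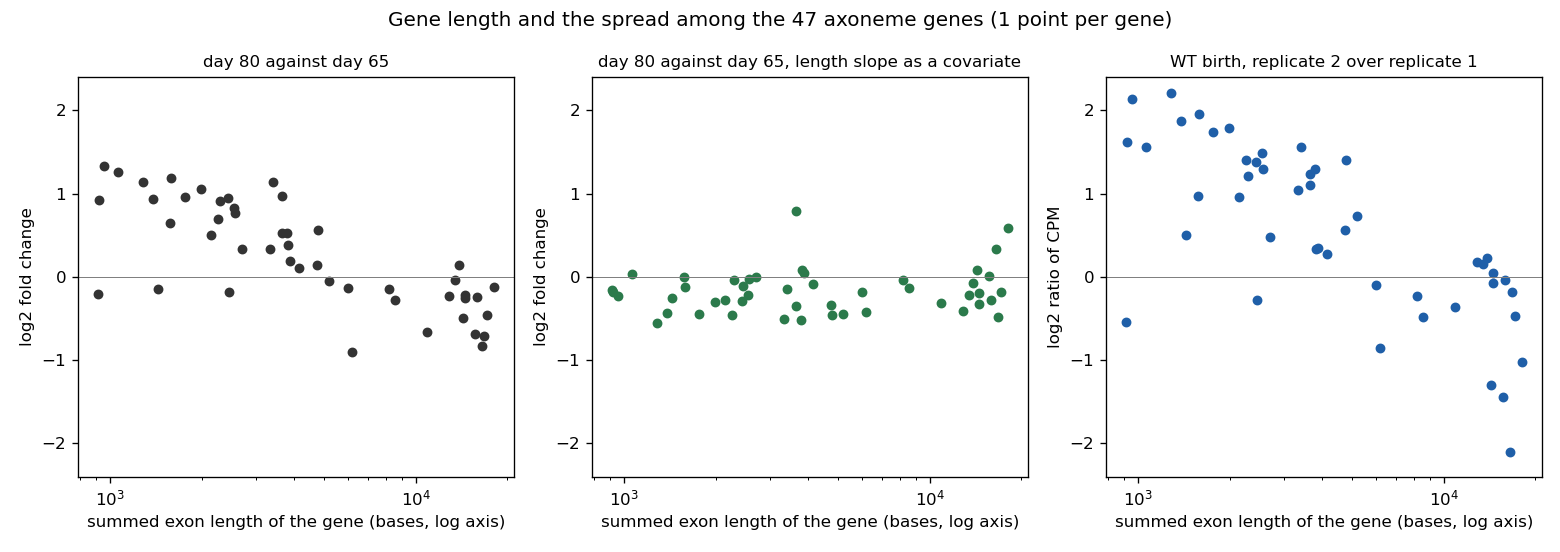
Each of the 47 genes by summed exon length (x axis, log scale) and, on the y axes, its log2 change from day 65 to day 80 as fitted (left), the same with the length slope as a covariate (middle), and the log2 ratio of replicate 2 to replicate 1 in WT at birth (right). The left and right panels fall with length (rho -0.76 and -0.75) and the middle one does not (rho 0.13).

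The spread between replicates also differed by subgroup. The median absolute log2 difference between the 2 libraries of a group, taken over the 10 groups, was 0.582 for the spokes, 0.519 for the tektins and lumen, 0.497 for the central pair, 0.467 for the links and ruler, 0.457 for the inner arms, 0.438 for the outer arms and 0.339 for the assembly factors. For the shorter genes it was 0.534 and for the longer ones 0.409. Pairs were widest at day 80, where replicate 2 differed from replicate 1 by a median of -1.57 in WT and 1.45 in CF, the low library being the one with thyroid or muscle genes. They were closest at day 100 in WT and at birth in CF, with a median absolute difference of 0.177 and 0.239, and both of these pairs share an identifier. At day 80 in WT 44 of 47 members were lower in replicate 2, and LRRC6, DNAH1 and DNAH11 were higher.

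None of the 47 genes passed edgeR's test between CF and WT, at any age or over all ages. Over the mean of the 5 ages 0 of 47 passed, where 0.766% of all genes did, and the median log2 difference, CF against WT, was -0.04. The median was 0.40 at day 65 and -0.21 at day 80. Later it was -0.03, -0.04 and, at birth, -0.29. At each age 0 of 47 passed (0.00995%, 0%, 1.46%, 0% and 0.0945% of all genes passed). At an unadjusted p under 0.05 stood LRRC6 over the ages, LRRC6 and DNAH1 at day 80, DNAAF2 at birth, and 0 members at the other ages, where 11.2% of all genes did over the ages and 1.39% to 12.3% at an age. The difference between development in CF and in WT had a median of -0.56 and 0 of 47 passed (0.00498% of all genes), with DNAAF2 alone at an unadjusted p under 0.05 (4.79% of all genes). An F test of edgeR for a genotype difference that varies with age called 0 of 47 as well, where it called 0.0697% of all genes. In that test 0 members were at an unadjusted p under 0.05, and the share of all genes there is not given. DESeq2 called 1 member, LRRC6, over the ages and at day 80, where it called 4.2% and 3.52% of all genes. It called 0 members at days 65, 100, 120 and 147 and in the difference of the developments (0.746%, 6.02%, 0.0846%, 2.2% and 0.563% of all genes).

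LRRC6, an assembly factor singled out here after its values were seen, lies on chromosome 9, 21506983 to 21582491. LRRC6 stood in WT at 20.4 and 24.7 CPM at day 65, 60.1 and 133 at day 80, 91.3 and 81.1 at day 100, 46.5 and 88.3 at day 120 and 50.1 and 108 at birth. LRRC6 in CF stood at 30.5 and 22.1 CPM at day 65, 12.9 and 34.2 at day 80, 58.9 and 48.8 at day 100, 43.5 and 48.0 at day 120 and 44.95 and 43.7 at birth. Both WT libraries were above both CF libraries at days 80, 100 and 147, and the 2 genotypes overlapped at days 65 and 120. The highest value of all was that of WT day 80 replicate 2, the library with thyroid genes. Over the ages CF was at -0.78 ± 0.22 on the log2 scale (edgeR adjusted p = 0.159, DESeq2 adjusted p = 0.0224), and at day 80 at -2.04 ± 0.51 (edgeR adjusted p = 0.278, DESeq2 adjusted p = 0.00692). Leaving out that library gave -0.64 over the ages and -1.35 at day 80. Without all 4 libraries with genes of other tissues LRRC6 was at -0.46 over the ages and at -0.81 at day 80. The day 80 difference was -2.47 without WT day 80 replicate 1 and -2.92 without CF day 80 replicate 2. Each of these 2 fits leaves a library with genes of other tissues alone in its group. All these fits leave 1 sample in a group, so the sizes alone are given.

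The genotype comparison also moved with length. At day 100 the 23 longer genes had a median of 0.39 and the 23 shorter ones -0.45 (rho with length 0.76), 13 members had both CF libraries above both WT ones and 16 had them below, where 40.5% and 30% of all genes did. With the length slope as a covariate the longer genes stood at 0.31 and the shorter at 0.29 (rho 0.01). At day 100 the 24 fibroblast and matrix genes were also higher in CF, with a median of 2.26 and 14 past the test, and their part in the members' values was not tested. At day 65 the shorter genes were the higher ones, at 0.64 against 0.20, 26 of the 47 had both CF libraries above both WT ones (23.8% of all genes), and with the covariate the medians were 0.20 and 0.24. At birth the shorter genes stood at -0.44 and the longer at 0.03, and with the covariate at 0.01 and -0.01.

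**Figure D5:**
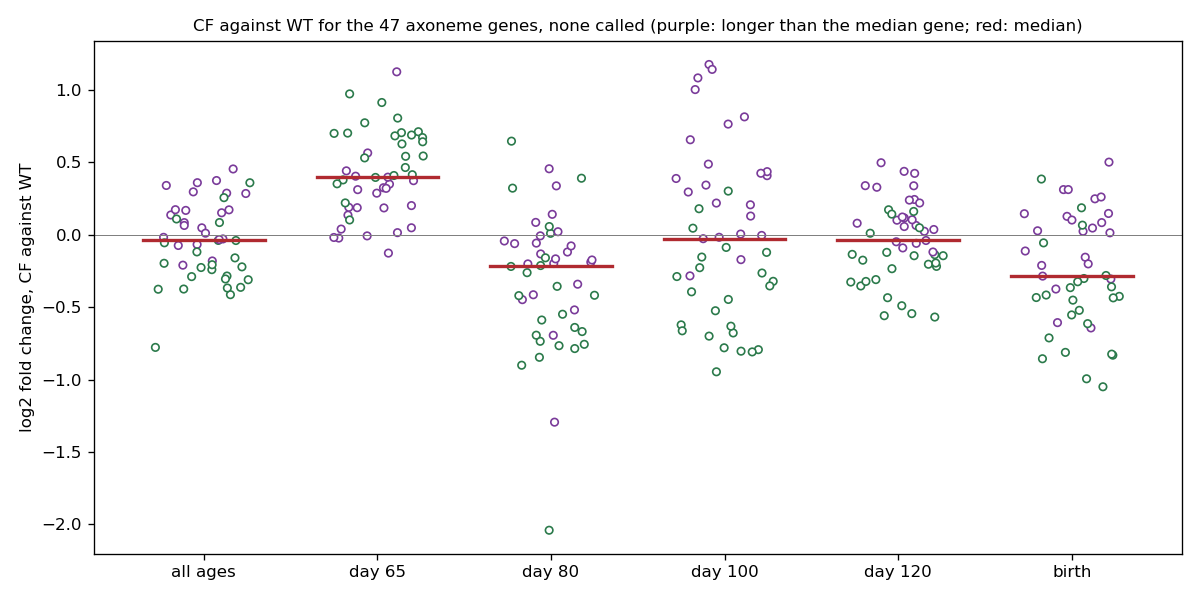
Log2 fold change of CF against WT for each of the 47 genes (y axis) over all ages and at each age (x axis), with genes longer than the median in purple, the others in green and medians as red bars; no point passed edgeR's test. The purple points lie higher than the green by their medians at day 100 and lower at day 65, and the lowest point is LRRC6 at day 80 (-2.04).

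Other genes of the cilium mostly had higher levels at birth too. Of 95 further axoneme genes tested, 52 passed as higher and 1 as lower between day 65 and birth with both genotypes averaged (median 1.35). From day 80 to day 100, 23 passed as higher (median 0.99). Over all genes 8.77% passed as higher and 9.86% as lower between day 65 and birth, and 3.22% as higher from day 80 to day 100. The largest changes were those of TEKT5, ODF3B (3.12 ± 0.87, edgeR adjusted p = 0.0262) and RSPH14 (2.62 ± 0.69, edgeR adjusted p = 0.0195). TEKT5 had no count in the 4 libraries of day 65 and at most 0.0703 CPM in those of birth, so no fold is given. At the other end were DNAH8 (-2.12 ± 0.68, edgeR adjusted p = 0.0462), DNAH17 (-0.04 ± 0.31, edgeR adjusted p = 0.953) and TUBB4B (0.12 ± 0.21, edgeR adjusted p = 0.736), the first 2 being dynein heavy chains of the sperm flagellum and the last a tubulin of cilia that many cells also use. The value of TUBB4B averages opposite directions: it rose in WT (1.19 ± 0.30, edgeR adjusted p = 0.0275) and was at -0.96 ± 0.30 in CF (edgeR adjusted p = 0.0850), and the difference of the developments was -2.15 ± 0.42 (edgeR adjusted p = 0.337). Of 35 basal body and transport genes 5 passed as higher and 1 as lower between day 65 and birth (median 0.44), against 8.77% and 9.86% of all genes.

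Among 14 regulators of multiciliated fate 3 passed as higher and 2 as lower between day 65 and birth (median -0.0045), against 8.77% and 9.86% of all genes. FOXJ1, the factor that switches on axoneme genes, stood in WT at 121 and 173 CPM at day 65, 670.5 and 112 at day 80, 734 and 639 at day 100, 352 and 786 at day 120 and 319 and 842 at birth. FOXJ1 in CF stood at 248 and 183 CPM at day 65, 139.5 and 414 at day 80, 520.1 and 384 at day 100, 424 and 359.7 at day 120 and 332 and 359.9 at birth. Like the tektins, it was uneven within the WT pairs of days 80, 120 and 147, and it differed between birth and day 65 by 1.33 ± 0.51 (edgeR adjusted p = 0.0903). Higher at birth were CCDC78 (1.92 ± 0.51, edgeR adjusted p = 0.0202), TP73 (1.48 ± 0.47, edgeR adjusted p = 0.0435) and RFX2 (0.91 ± 0.29, edgeR adjusted p = 0.0475), and lower were GMNC, which starts the fate programme (-1.95 ± 0.48, edgeR adjusted p = 0.0146), and PLK4, a kinase of centriole duplication (-1.15 ± 0.23, edgeR adjusted p = 0.00419). CDC20B was at -0.97 ± 0.39 (edgeR adjusted p = 0.105). By genotype PLK4 was at -0.09 ± 0.32 in WT (edgeR adjusted p = 0.876) and fell in CF (-2.21 ± 0.33, edgeR adjusted p = 0.00220). CDC20B was at 0.96 ± 0.56 in WT (edgeR adjusted p = 0.279) and fell in CF too (-2.89 ± 0.59, edgeR adjusted p = 0.0122). The difference of the developments was -2.13 ± 0.46 for PLK4 and -3.85 ± 0.81 for CDC20B (edgeR adjusted p = 0.400 and 0.368). MCIDAS and CCNO, which drive the making of many centrioles, differed from day 65 to birth by 1.26 ± 0.64 and 1.83 ± 0.90 in WT (edgeR adjusted p = 0.222 and 0.203) and by -2.23 ± 0.66 and -0.94 ± 0.88 in CF (edgeR adjusted p = 0.0742 and 0.696). MCIDAS stood at 18.4 and 21.4 CPM in WT and 36.4 and 25.1 in CF at day 65. At birth MCIDAS stood at 51.5 and 43.6 CPM in WT and at 6.72 and 6.41 in CF, and neither CF against WT at birth (-2.86 ± 0.68, edgeR adjusted p = 0.178) nor the difference of the developments (-3.49 ± 0.92, edgeR adjusted p = 0.806) passed.

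Other cell types of the trachea changed over the same span, and their part in the rise of the cilium genes was not tested beyond the covariate for epithelium. With both genotypes averaged, the 30 epithelial markers had a median of 0.61 between day 65 and birth, 4 past the test as higher, the 11 secretory cell markers 2.92, with 6 higher and 1 lower, and the 14 basal cell markers -0.48, with 3 lower. Of 24 fibroblast and matrix genes 10 passed as lower (median -0.99), and of 19 cell cycle genes 17 as lower and 1 as higher (median -1.91). Over all genes 8.77% passed as higher and 9.86% as lower. With the epithelium score as a covariate the median rise of the 47 members was 0.97 in place of 1.47.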

How the data were processed

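RNA of 20 sheep trachea samples, labelled epithelial, was sequenced. Reads were aligned with STAR 2.6 and assigned to genes with featureCounts 1.6.3 of Subread, per the submitters' processing notes; the sources used here do not give the genome build, annotation release or strand setting, so overlapping and antisense genes cannot be told apart. The values used are the raw counts per gene as deposited by the authors, with no normalization, and gene positions and exon lengths as the count tables give them. Every column of values belonged to a labelled sample (0 columns mapped to none).

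Counts were fitted with edgeR 4.0.16 in R 4.3.3 (TMM library sizes, robust quasi-likelihood fit, 1 coefficient for each of the 10 groups, 10 residual degrees of freedom) after its default expression filter, which left 20097 genes; p-values were adjusted by Benjamini-Hochberg over all of them, with a threshold of 0.05. CPM were computed on the TMM library sizes, and log2 CPM with a prior count of 2. Contrasts were birth against day 65 in each genotype, the steps between adjacent ages, CF against WT at each age and over the ages, and the difference of the developments; birth against day 65 with both genotypes averaged and the F test were added after the data were seen. The procedure was also run on simulated data, and the outcome is not given here. Those counts were drawn independently for each sample, with no shared identifiers, tilt with length or libraries with genes of other tissues. The simulation therefore cannot tell how these features affect the calls. The members, subgroups and gene lists were chosen with earlier results of these data known, and gene symbols were matched to RefSeq's table of sheep genes, which gave 1 identifier for TEKT4.

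Genes named with values per library are those set by role and the largest and smallest change between day 65 and birth in each subgroup. Outside the list, the 3 largest and 3 smallest changes of the further axoneme genes and of the fate regulators were named, mostly by fold change alone. FOXJ1, MCIDAS and CCNO were named too, FOXJ1 with values of every library and MCIDAS with those of day 65 and birth. LRRC6, DNAH11, DNAH1 and RFX2 were named beyond these rules, after their values were seen. Alternatives were DESeq2 1.42.0, other scalings, no expression filter, a replicate block, covariates for gene length and epithelium, and leaving libraries out. A further one summed the pairs of WT day 100 and of CF day 147. Depth, 42372433 counts or more per library, gave every member at least 160 counts in every library, and each group had 2 samples.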

Additional observations from a re-analysis of the deposited data

How the results depend on the processing

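The calls in the 4 comparisons that had any kept their direction under every alternative run (1798 of 1798 values) and lost the call in 591. With the replicate number as a replicate block, 3 members passed between birth and day 65 in WT, 26 with both genotypes and 13 from day 80 to day 100, where the fit without the block gave 10, 32 and 19. The numbers were not shown to pair the samples: over 45 pairs of groups the correlation of their deviations ran from -0.588 to 0.733, with a median of 0.023, and 12 were over 0.1. Birth against day 65 in WT gave 37 by DESeq2, 2 with library sizes unscaled, 1 with the pairs of a shared identifier summed, 5 with the length slope and 2 with the epithelium score as a covariate. Of the 5, CDHR3 alone was among the 10, and DNAH1, DNAH2, DNAH11 and SPAG1 were not. The share of all genes called was 20.7% by DESeq2 and 16.4% with the length slope. For the replicate block and the other settings in WT that share is not given, so those counts show no drop particular to the members. In CF it gave 5 by DESeq2 (11.9% of all genes), 0 with pairs summed and 4 with the length slope (18.3% of all genes). With both genotypes it gave 18 with library sizes unscaled, 8 with pairs summed and 11 with the epithelium score. From day 80 to day 100 the count was 0 with pairs summed, 39 with the length slope, 0 with the epithelium score and 0 without the 4 libraries with genes of other tissues. DESeq2 called 1 member in CF against WT over the ages and 1 at day 80. By day 80 the midpoint was passed by 10 genes in WT alone, 2 in CF alone, 22 without the 4 libraries, 1 with the length slope and 8 with the epithelium score, and by day 100 by 27 with the length slope and 22 with the epithelium score. The covariates also take degrees of freedom from the fit; beyond that the cause of these shifts was not tested.

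Leaving out 1 library gave 1 to 30 members in WT, 0 to 3 in CF, 5 to 42 with both genotypes, 0 to 35 from day 80 to day 100, 0 to 1 in CF against WT at day 80, and 1 to 18 genes past the midpoint by day 80 and 37 to 42 by day 100. Unscaled library sizes moved the median of all genes between birth and day 65 from -0.02 to -0.36 in WT and from -0.03 to -0.30 with both genotypes.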

Other observations

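The proportion of the outer arm heavy chains DNAH9 and DNAH5 differed between ages. This ratio was chosen after its values were seen and has no test. The CPM of DNAH9 over that of DNAH5, genes of similar exon length (13846 and 16717 bases), was 1.05 to 1.45 in the 4 libraries of day 65, 1.79 to 3.59 at day 80, 1.26 to 1.88 at day 100, 1.85 to 2.97 at day 120 and 1.76 to 2.55 at birth. The 2 libraries of WT day 100 lay within the range of day 65, and the other 14 later libraries lay above it. The highest ratios were those of WT day 80 replicate 1, WT day 120 replicate 2 and WT day 147 replicate 2. These libraries also had the lowest length slopes (-0.179, -0.174 and -0.243). WT day 65 replicate 1, with the lowest ratio, had the highest slope (0.245). WT day 100 replicate 1 had a slope of -0.146 and a ratio of 1.34. The part of gene length in the ratio was not tested. DNAH9 is found in the distal part of airway cilia and DNAH5 along their whole length.

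The inner arm heavy chain DNAH1, also chosen after its values were seen, stood in WT at 46.3 and 58.7 CPM at day 65, 49.7 and 123 at day 80, 63.2 and 80.5 at day 100, 149 and 103 at day 120 and 180.0 and 88.8 at birth. DNAH1 in CF stood at 69.4 and 66.5 CPM at day 65, 20.8 and 49.5 at day 80, 191 and 133 at day 100, 75.0 and 198 at day 120 and 215 and 119 at birth. Its highest library of day 80 was the one with thyroid genes, in which most members were low. CF against WT was -1.29 ± 0.57 at day 80 (edgeR adjusted p = 0.5002) and 0.14 ± 0.25 over the ages (edgeR adjusted p = 0.897).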
